A study of Mus musculus with 12 samples.

Results

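The complement genes read here in Myc-CaP cells are C3, C4b, C1s1, C1ra, C1rl, Cfb, Cfi, Serping1 and Cd55. They were taken from the count table by their symbols, and make up 9 of its 55216 genes. C3 was chosen by its measured rise with the drug oxaliplatin, which is among the largest, so its differences with oxaliplatin are described without a test. The other 8 were taken by name, as components and regulators that act beside C3, without a threshold on their values.

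Myc-CaP is an established line from a prostate tumor of a male FVB/NJ mouse that carries a Myc transgene, and every group is this 1 line. Cells were grown for 48 h and RNA-seq of poly(A) RNA gave 12 libraries in 6 groups of 2. Ctrl cells received no agent, IFN200 and IFN2000 cells received interferon γ (IFNγ) at 200 or 2000 pg as labeled, without a volume, and Oxali cells received 2 μM oxaliplatin, a platinum drug that crosslinks DNA. Combo200 and Combo2000 cells received Oxali with IFNγ at the lower or the higher dose. Groups were read from the sample titles. The agent label of the 6 single-treatment libraries disagrees with their title: those titled IFN200 carry the agent Oxali, those titled IFN2000 carry IFNγ at 200 pg, and those titled Oxali carry IFNγ at 2000 pg. Were the agents right, each of the 3 single-treatment groups would take another one's name, while Ctrl, Combo200 and Combo2000 would keep theirs. Of all genes tested, 0.114% were called (edgeR adjusted p under 0.05) between Ctrl and the libraries titled IFN200, which carry the agent Oxali. The labels do not say whether the 2 libraries of a group came from separate cultures, so p-values measure the spread between these libraries, which may be technical.

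Library totals ran from 18749975 to 25931516 counts, so that a count of 0 allows up to 0.111 to 0.167 CPM (a gene's counts adjusted for library size), for counting error only. Of the prostate luminal markers, Krt8 had 353 to 628 counts per library. Krt18 had 0 to 5 counts, Cdh1 0 to 6, and Epcam was at 0 in all 12 libraries. Several defining epithelial transcripts were thus at or near 0 in this line. IFN2000 replicate 2 held transcripts of blood cells, with 64 counts of Ptprc, 33 of Cd4 and 13 of Cd3d, and the differences of IFN2000 that it moves most are also given without it.

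Complement is a cascade of plasma proteins that marks targets for removal and recruits inflammatory cells. In the classical pathway, C1q binds a target and activates the proteases C1r and C1s, C1s cleaves C4 and C2, and the resulting convertase cleaves C3, the protein on which all routes meet. Factor B (Cfb) forms the convertase of the alternative pathway. Factor I (Cfi), the C1 inhibitor (Serping1) and the membrane protein Cd55 restrain the cascade. The liver makes most of the plasma proteins, but epithelial cells, fibroblasts and macrophages also make some of them, and IFNγ and other inflammatory signals are known to raise several of these genes.

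The coordinates are on GRCm38. C3 lies on chromosome 17 from 57203970 to 57228136 on the minus strand, with 42 exonic blocks and 5143 exonic bases. C4b lies on the same chromosome from 34728380 to 34743882, and Cfb from 34856374 to 34862518, both on the minus strand. The C1 proteases sit together on chromosome 6: C1rl from 124493113 to 124510643 and C1ra from 124512405 to 124523443 on the plus strand, and C1s1 from 124530345 to 124542359 on the minus strand. Cfi lies on chromosome 3, Serping1 on chromosome 2 and Cd55 on chromosome 1.

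RefSeq promoter windows, from 250 bases before to 50 bases after a transcript start on GRCm38.p6, were found for 5 of the 9 genes (C3, C1s1, C1ra, C1rl and Cd55). Those of the 3 genes on which the results turn most are shown 5′ to 3′ on the gene's strand: C3 because it was the one high with Oxali alone, and C1ra and C1s1 because they rose most clearly with IFNγ in the presence of Oxali. Capitals mark each match to 4 searched motifs: NF-κB (its common consensus), the IFNγ-activated GAS element (TTCNNNGAA), the core of the ISRE element and C/EBP (TTGCNNAA), on both strands.
C3, chr17:57228087-57228386 (minus strand): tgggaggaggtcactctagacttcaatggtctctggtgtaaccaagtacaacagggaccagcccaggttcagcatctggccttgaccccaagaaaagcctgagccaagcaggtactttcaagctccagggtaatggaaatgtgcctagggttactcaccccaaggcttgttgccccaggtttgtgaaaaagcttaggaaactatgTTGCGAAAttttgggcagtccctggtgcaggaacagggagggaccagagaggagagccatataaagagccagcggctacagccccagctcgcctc
C1ra, chr6:124512371-124512670 (plus strand): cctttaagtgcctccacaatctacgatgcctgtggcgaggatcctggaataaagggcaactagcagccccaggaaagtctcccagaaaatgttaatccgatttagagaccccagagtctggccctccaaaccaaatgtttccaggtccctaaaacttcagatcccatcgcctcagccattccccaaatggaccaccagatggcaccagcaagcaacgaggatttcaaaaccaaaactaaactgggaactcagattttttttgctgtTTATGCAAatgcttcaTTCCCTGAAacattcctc
C1s1, chr6:124542310-124542609 (minus strand): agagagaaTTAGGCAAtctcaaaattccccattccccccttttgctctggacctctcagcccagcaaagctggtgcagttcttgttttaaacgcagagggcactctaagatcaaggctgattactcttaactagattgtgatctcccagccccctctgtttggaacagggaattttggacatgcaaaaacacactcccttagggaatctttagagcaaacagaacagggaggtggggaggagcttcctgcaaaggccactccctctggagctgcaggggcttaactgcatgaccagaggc

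In the C3 window, TTGCGAAA, a match to the C/EBP motif, covers bases -45 to -38 from the start. The C1ra window holds a C/EBP match, TTATGCAA, at bases 17 to 24 and a GAS match, TTCCCTGAA, at bases 33 to 41 after this start, which lies inside the gene as the GENCODE models draw it. RefSeq lists 2 starts for C1s1: in the window shown, TTAGGCAA, a C/EBP match, covers bases -242 to -235, and the window of the other start, chr6:124542272-124542571, held no match. The window of C1rl held 1 C/EBP match, TTTTGCAA, at -243 to -236, and that of Cd55 held none of the 4 motifs. Of 32851 mouse promoters, 10.8% held the C/EBP motif, 8.30% the GAS motif, 8.46% the NF-κB motif and 3.44% the ISRE core. None of the 5 genes' windows held the NF-κB or ISRE letters, which says only that these letters are not in these windows.

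C3 was present at a low level in untreated cells and was high in every library that received Oxali. Combo2000 had 1927 and 1457 counts, Combo200 1466 and 1541, Oxali 948 and 904, IFN2000 103 and 91, IFN200 63 and 88, and Ctrl 44 and 58. The mean CPM ± SD (n = 2) was 67.1 ± 6.07 for Combo2000, 61.7 ± 3.10 for Combo200, 43.4 ± 0.378 for Oxali, 4.24 ± 0.247 for IFN2000, 3.31 ± 0.816 for IFN200 and 2.69 ± 0.347 for Ctrl. The 6 libraries without Oxali lay between 2.45 and 4.41 CPM and the 6 with it between 43.1 and 71.4 CPM, so that the sets did not overlap. Within the lower set, Ctrl and IFN200 overlapped and IFN2000 lay above both. Within the higher set, the Combo libraries lay above Oxali, and Combo200 and Combo2000 overlapped. The log2 fold change of Oxali over Ctrl, by which C3 was chosen, was 4.0 (SE 0.12), rank 79 from the top among the 13177 genes that passed the low-count filter. In bulk RNA a change in the share of cells that make a transcript and a change in transcript per cell cannot be told apart.

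**Figure D1:**
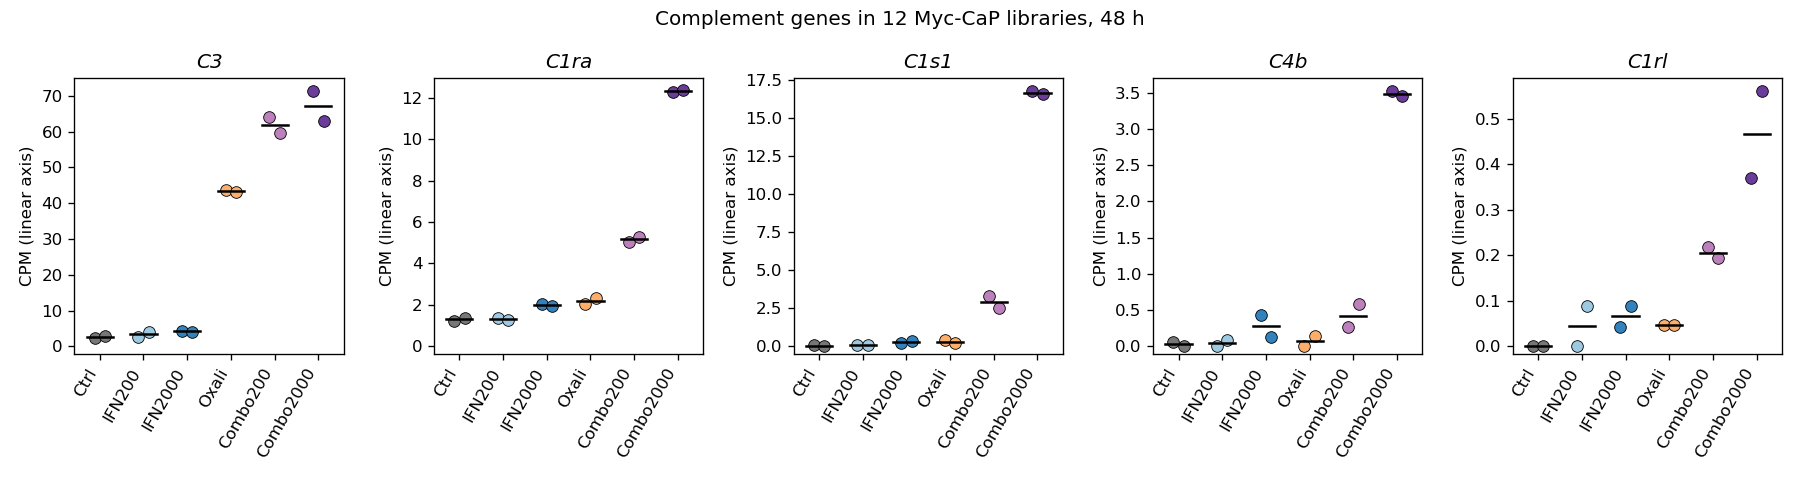
CPM on linear axes in each of the 12 libraries (points) by group, with a bar at the mean of the 2 libraries, for the 5 genes with the most informative counts; each panel has its own scale. C3 is high in all 6 libraries with Oxali, whereas C1ra, C1s1, C4b and C1rl are highest in Combo2000.

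Both combinations were also set beside the matching IFNγ dose. These are again rises with the drug, so they too are given without a test. Combo200 exceeded IFN200 by a log2 fold change of 4.22 (SE 0.11), or 18.6 times in counts scaled to the library totals. Combo2000 exceeded IFN2000 by 3.99 (SE 0.10), or 15.9 times. Differences with Oxali were broad in these cells. At an adjusted p under 0.05, 36.5% of the 13177 genes were called higher and 33.5% lower in the first comparison, and 38.5% and 33.8% in the second.

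IFNγ moved C3 far less than Oxali did. With Oxali present, C3 rose at the lower dose by 0.51 on the log2 scale (95% interval 0.37 to 0.65, edgeR adjusted p = 5.26e-05), and at the higher dose by 0.63 (0.49 to 0.77, edgeR adjusted p = 1.05e-06). Between Combo2000 and Combo200 the difference was 0.12 (95% interval -0.01 to 0.25, edgeR adjusted p = 0.564). Without Oxali, IFN2000 exceeded Ctrl by 0.65 (SE 0.20, edgeR adjusted p = 0.0301), and IFN200 by 0.29 (SE 0.21, edgeR adjusted p = 0.86). The call at IFN2000 was lost when Ctrl replicate 1 (0.53, edgeR adjusted p = 0.235), Ctrl replicate 2 (0.80, edgeR adjusted p = 0.0767) or IFN2000 replicate 2 (0.59, edgeR adjusted p = 0.165) was left out. The excess of the IFNγ effect with Oxali over that without it, on the log2 scale, was -0.02 (SE 0.20, 95% interval -0.44 to 0.40) at the higher dose and 0.22 (SE 0.22, 95% interval -0.25 to 0.68) at the lower dose. These 2 values contain the difference that chose C3 and are given without a test.

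The first proteases of the classical pathway behaved otherwise. C1ra, which encodes the protease C1r, was highest in Combo2000, with 331 and 287 counts, followed by Combo200 with 115 and 137. Oxali had 44 and 49 counts, IFN2000 48 and 44, IFN200 31 and 29, and Ctrl 22 and 27. The mean CPM ± SD (n = 2) was 12.3 ± 0.0769 for Combo2000, 5.16 ± 0.197 for Combo200, 2.18 ± 0.220 for Oxali, 2.01 ± 0.0648 for IFN2000, 1.31 ± 0.0454 for IFN200 and 1.3 ± 0.102 for Ctrl. Ctrl and IFN200 overlapped at the bottom, IFN2000 and Oxali overlapped next to each other, and Combo200 and Combo2000 lay above all 4 other groups, without overlap with each other. The difference between Oxali and Ctrl, 0.74 on the log2 scale (SE 0.21), is given without a test, since the rule that picked C3 used that contrast.

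With Oxali, C1ra rose with IFNγ by 1.24 on the log2 scale at the lower dose (SE 0.15, edgeR adjusted p = 1.71e-05) and by 2.50 at the higher dose (SE 0.13, edgeR adjusted p = 1.14e-11). Combo2000 exceeded Combo200 by 1.25 (SE 0.10, edgeR adjusted p = 8.45e-08), a comparison that does not depend on the conflicting labels. Without Oxali, the differences from Ctrl were 0.02 (SE 0.23, edgeR adjusted p = 0.998) in IFN200 and 0.63 (SE 0.21, edgeR adjusted p = 0.0623) in IFN2000, or 0.60 (edgeR adjusted p = 0.247) without IFN2000 replicate 2. IFN2000 exceeded IFN200 by 0.61 (SE 0.20, edgeR adjusted p = 0.0443), a call lost without any 1 of the 4 libraries compared, at edgeR adjusted p of 0.0694 to 0.204, and under several other settings. Against the matching IFNγ dose, C1ra was higher by 1.97 in Combo200 (SE 0.16, edgeR adjusted p = 1.89e-09) and by 2.61 in Combo2000 (SE 0.13, edgeR adjusted p = 4.5e-13).

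The IFNγ effect on C1ra was itself larger with Oxali than without it. At the higher dose the excess, tested as an interaction, was 1.87 on the log2 scale (SE 0.27, 95% interval 1.31 to 2.43, edgeR adjusted p = 0.000354), and it was called under every alternative fit run, between 1.77 and 1.97. Among all genes, 2.12% were called higher for this interaction. This interaction is computed from the Oxali and Ctrl libraries among others. C1ra, unlike C3, was taken by name and not by its values in them. However, the genes and tests were chosen with earlier results of these data known. At the lower dose it was 1.23 (SE 0.28, edgeR adjusted p = 0.0511), where 0.562% of all genes were called higher. As a description in CPM, the separate gains from Oxali and from IFN2000 over Ctrl, added to the Ctrl level, came to 2.90, and the Combo2000 mean was 4.25 times this sum. For C3 the same sum was 44.9 CPM, and its Combo2000 mean was 1.49 times the sum.

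C1s1, which encodes the protease C1s and lies next to C1ra, was nearly silent in untreated cells. Ctrl had 1 and 0 counts, IFN200 2 and 2, IFN2000 5 and 8, and Oxali 9 and 4. Combo200 had 76 and 65 counts, and Combo2000 453 and 385. The Combo200 libraries stood at 3.31 and 2.51 CPM and the Combo2000 libraries at 16.8 and 16.6 CPM, above all libraries of the other 4 groups, which reached 0.415 CPM at most. C1s1 passed the low-count filter only through the combinations, so it had to be higher there, and its differences between them and the other groups are given without a test. In scaled counts, Combo200 was 9.48 times Oxali (95% counting interval 5.37 to 18.3), and Combo2000 was 54.8 times Oxali (31.9 to 103). Combo2000 was 5.78 times Combo200 (4.83 to 6.96). The fitted log2 fold changes were 3.22 (SE 0.32) for Combo200 over Oxali and 5.75 (SE 0.22) for Combo2000 over Oxali, and rose to 3.89 and 6.41 without Oxali replicate 1. Combo200 alone would have carried C1s1 past the filter, and Combo2000 exceeded Combo200 by 2.53 (SE 0.14, edgeR adjusted p = 1.44e-10).

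Without Oxali the counts of C1s1 were too low for a firm statement. IFN2000 held 13 counts against 1 in Ctrl, a ratio of 10.7 with a counting interval of 1.61 to 455. Its fitted log2 fold change of 3.18 (SE 0.99, edgeR adjusted p = 0.033) was a call, but it was lost with DESeq2 (adjusted p = 0.108) and without any 1 of the 4 libraries compared (edgeR adjusted p from 0.0543 to 0.211). For the interaction with Oxali the value was 2.58 at the higher dose (SE 2.03, edgeR adjusted p = 0.578), and the low counts without Oxali leave its size undetermined. Relative to the matching IFNγ dose, C1s1 was 33.0 times higher in Combo200 (12.6 to 123) and 58.8 times higher in Combo2000 (34.2 to 111).

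C4b encodes complement C4, the substrate of C1s. It was near 0 in most groups: Ctrl had 1 and 0 counts, IFN200 0 and 2, IFN2000 10 and 3, Oxali 0 and 3, and Combo200 6 and 15. In Combo2000 it had 95 and 80 counts, or 3.48 ± 0.0502 CPM (SD, n = 2), and these 2 libraries stood far above the other 10, which reached 0.580 CPM at most. In scaled counts Combo2000 was 49.6 times Oxali (95% counting interval 16.7 to 243), 12.3 times IFN2000 (6.99 to 23.5) and 8.10 times Combo200 (5.14 to 13.4). C4b too passed the filter only through the combinations, so these ratios carry no test. They also rest on few counts: the fitted log2 fold change over Oxali, 5.52 (SE 0.54), was 4.56 without Oxali replicate 1 and 9.31 without Oxali replicate 2. That over IFN2000, 3.59 (SE 0.40), was 4.64 without IFN2000 replicate 2 and 2.99 without replicate 3, and that over Combo200, 3.00 (SE 0.36), was 2.58 and 3.71 without Combo200 replicates 2 and 3. Combo200 was 6.12 times Oxali (1.83 to 32.0) and 9.83 times IFN200 (2.40 to 86.5). IFN2000 over Ctrl was 3.17 (SE 1.22, edgeR adjusted p = 0.0805). Without IFN2000 replicate 2, the library with blood cell transcripts, it was 2.12 (edgeR adjusted p = 0.51), and without replicate 3 it was 3.78 (edgeR adjusted p = 0.0244).

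**Figure D2:**
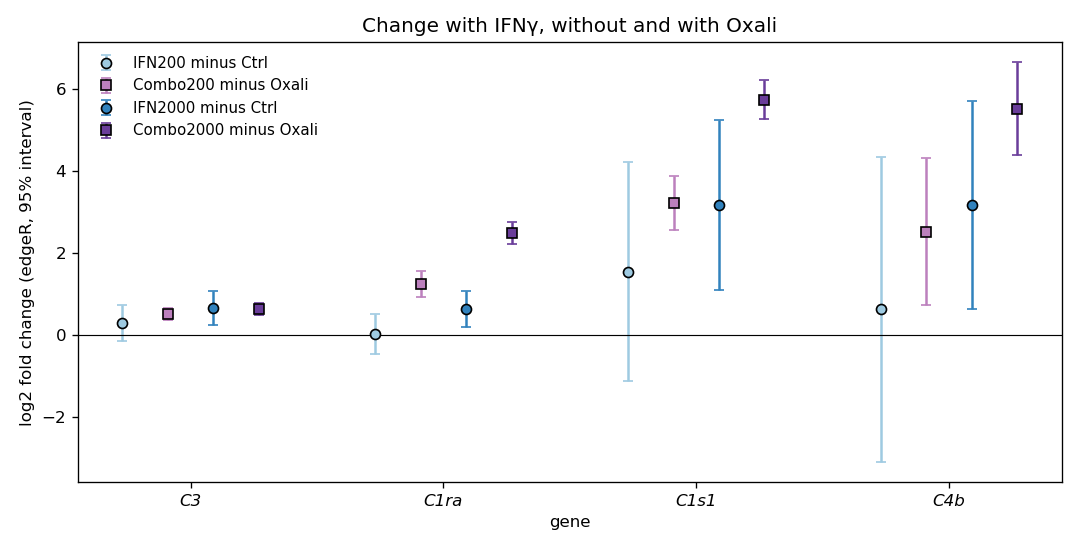
Fitted log2 fold change with IFNγ (edgeR, points with 95% intervals) without Oxali (circles) and with Oxali (squares), at the lower (pale) and higher (dark) IFNγ dose, for the 4 genes that passed the low-count filter. The dark circle and square lie together for C3, at 0.65 and 0.63, and apart for C1ra, at 0.63 and 2.50; the wide bars of C1s1 and C4b without Oxali come with counts of 0 to 10 per library.

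C1rl, a C1r-like protease in the same cluster, stayed below the filter. Both Ctrl libraries had 0 counts, IFN200 had 0 and 2, IFN2000 1 and 2, Oxali 1 and 1, Combo200 5 and 5, and Combo2000 10 and 13. Its highest libraries were those of Combo2000, followed without overlap by those of Combo200. Combo2000 was at least 2.92-fold higher than Ctrl, taken against a floor of 3 counts per library. It was 9.78 times Oxali (95% counting interval 2.42 to 85.5) and 2.24 times Combo200 (1.02 to 5.26). With no filter, over 26916 genes, the fitted log2 fold change of C1rl was 3.16 for Combo2000 over Oxali and 2.71 for Combo2000 over IFN2000. C1rl failed the filter and was highest in the combinations, so these differences are given without a test.

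The remaining 4 genes gave no measurable pattern. Serping1, the inhibitor of C1r and C1s, had 0 to 5 counts per library and 33 in all, with 3 and 5 counts in both Ctrl and Combo2000. Cfi had 0 to 2 counts per library, and Cd55 had 1 count in 1 of the 12 libraries. Cfb had 1 count in each of 2 libraries, Oxali replicate 1 and Combo2000 replicate 2. For Cfb this says little, since 79.5% of its exonic bases also belong to Gm20547, a gene model on the same strand, and reads in both may not have been counted; Gm20547 itself had 0 counts in all 12 libraries. At this depth a difference in these 4 genes was not detectable.

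Per length, the balance among the genes shifted with treatment. In Ctrl, C3 stood at 0.524 and C1ra at 0.435 CPM per kb of exon, with C1s1 at 0.00889. In Oxali, C3 was at 8.44 and C1ra at 0.732, with C1s1 at 0.0968 CPM per kb. In Combo2000, C3 was at 13.05, C1s1 at 5.33, C1ra at 4.13, C4b at 0.612 and C1rl at 0.155 CPM per kb. Thus C1s1 lay below C1ra in Oxali and above it in Combo2000, per length of all exonic bases. Of windows of 50 bases, 48.0% of C1ra and 24.3% of C1s1 also occur in their copies C1rb and C1s2. Reads from these may have been left out, which would lower C1ra more, so the order in Combo2000 is uncertain.

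Only C3 and C1ra passed the filter in every group. Both were called higher in Combo200 than in Oxali, where 1.58% of all genes were called higher, and in Combo2000 than in Oxali, where 3.37% were. C1ra was called higher in Combo2000 than in Combo200, where 1.21% of all genes were, and C3 was not. IFN2000 over Ctrl gave a call for C3, against 8.39% of all genes called higher, and for C1s1. IFN2000 over IFN200 gave a call for C1ra, against 11.3%. IFN200 over Ctrl gave 0 calls among the 4 with edgeR, with 0 at an unadjusted p under 0.05, where 0.114% of all genes were called. DESeq2 also gave 0, but no adjusted p for 1 of the 4. Both combinations share the Oxali libraries, and both IFNγ groups share the Ctrl libraries, so these comparisons are not independent of each other or of the contrast that chose C3.

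The C1 cluster was then read against its surroundings. C1rl, C1ra, C1s1 and the copies C1rb and C1s2 span 143 kb of chromosome 6. The 11 other genes tested within 200 kb had log2 fold changes from -0.19 to 0.19 for Combo2000 over Oxali. Of these 11, edgeR called 0 and DESeq2 called 0, and 1 had an unadjusted p under 0.05, where 3.37% of all genes tested were called higher. In other comparisons some neighbours were called in either direction: 3 for IFN2000 over Ctrl, 8 for Combo200 over IFN200, 7 for Combo2000 over IFN2000, and 1 for the interaction at the higher dose. Of all genes, 8.39%, 36.5%, 38.5% and 2.12% were called higher in these, in that order. A further 33.5% were called lower for Combo200 over IFN200 and 33.8% for Combo2000 over IFN2000. The 3 called for IFN2000 over Ctrl (Emg1, Phb2 and Tpi1) were all higher. For the interaction the share called lower is not given here, so the 2.12% covers 1 direction only.

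**Figure D3:**
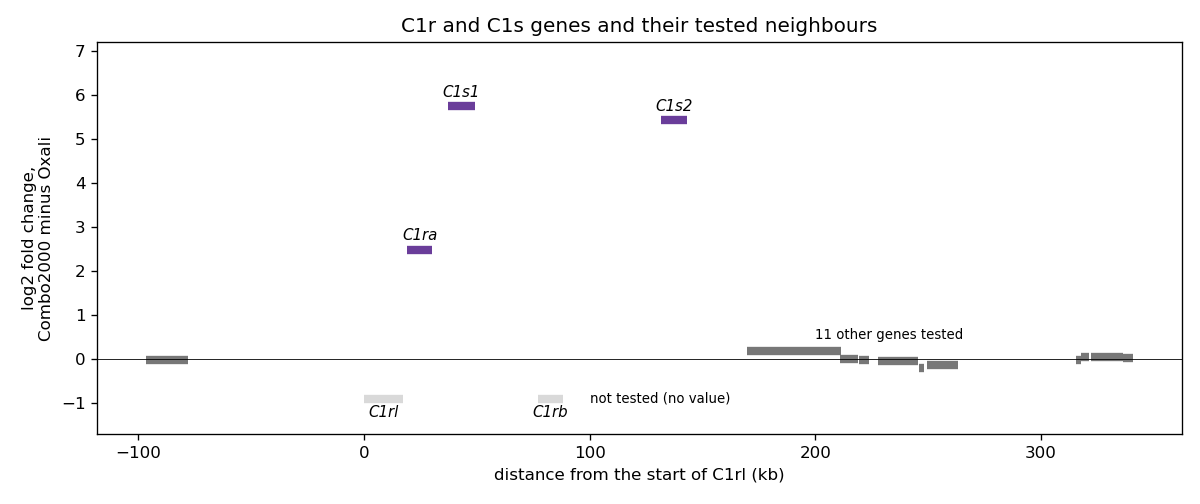
Genes around the C1 cluster drawn to scale by distance in kb from the start of C1rl; height is the log2 fold change of Combo2000 over Oxali (edgeR). C1ra, C1s1 and C1s2 (purple) stand at 2.50 to 5.75, the 11 other genes tested (dark grey) lie between -0.19 and 0.19, and C1rl and C1rb (pale, below the line) were not tested and have no height.

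Near-identical copies limit how exactly these genes can be told apart. The transcripts of C1s1 and C1s2 are 95.9% identical, those of C1ra and C1rb 98.0%, and those of C4b and C4a 96.1%. Of all windows of 50 bases, 24.3% of C1s1, 48.0% of C1ra and 35.2% of C4b occur unchanged in the copy, so reads may have been split or left out. In the combinations C1s2 had 18.2% to 23.1% of the counts of C1s1, and C1rb had 2.09% to 5.74% of the counts of C1ra. C4a had 6 to 16 counts in every library. The RefSeq window of C1rb held the same GAS and C/EBP letters as that of C1ra, at -119 to -111 and -135 to -128 from its own start. Of the exonic bases of C1s1, 18.4% also lie opposite exons of the antisense gene Gm16567, which had 0 counts in all libraries. The values of C1ra, C1s1 and C4b are uncertain to this extent.

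Among genes with a mean above 1 on the log2 CPM scale, those whose pattern over the 12 libraries was most like that of C3 were Tmco4 (Pearson r 0.999), Tmem129 (0.998), Zfand2a (0.998), Map7d1 (0.997) and Tjap1 (0.997). For C1ra they were led by Ube2l6 (0.994) and Plaat3 (0.987), for C1s1 by Ube2l6 (0.992) and Parp14 (0.989), and for C4b by Stat3 (0.952) and Mlkl (0.950). Among the 4 genes, C1s1 and C1ra were most alike (0.985), and C3 was least like C4b (0.613). The 12 points form 6 pairs, so these coefficients describe differences between the groups and carry no test. For C3 the groups fall into 2 blocks, with and without Oxali. Stat3, most like C4b, had 59.7 CPM in Ctrl, 58.4 in Oxali and 114 in Combo2000.

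Another 49 complement genes were read as a fixed list. Of these, 15 had no count in any library, 14 never exceeded 3 counts, and 11 passed the filter. C1qa and C1qc were at 0 and C1qb had at most 1 count, so the recognition subunit that C1r and C1s attach to was not detected beside them. C1s2, the copy of C1s1, had 0 to 4 counts in the libraries outside the combinations, 15 and 15 in Combo200, and 94 and 70 in Combo2000. It too passed the filter only through the combinations, so its differences of 3.03 for Combo200 over Oxali, 5.43 for Combo2000 over Oxali and 2.40 for Combo2000 over Combo200 on the log2 scale are given without a test. For Combo2000 over Oxali the median log2 fold change of the 11 was -0.03, against 0.00 over all genes tested. IFN200 over Ctrl gave 0 calls among the 11 with edgeR, and 0 at an unadjusted p under 0.05, where 0.114% of all genes were called. DESeq2 also gave 0, but no adjusted p for 7 of the 11. IFN2000 over Ctrl gave 2, C1qbp (0.22) and Itgb2 (2.7), where 8.39% of all genes were called higher. The Itgb2 difference fell to 0.33 without IFN2000 replicate 2, the library with blood cell transcripts.

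Combo200 over IFN200 gave 3 calls higher and 3 lower among the 11, where 36.5% of all genes were called higher and 33.5% lower. Combo2000 over IFN2000 gave 3 higher and 4 lower, where 38.5% and 33.8% of all genes were. The higher calls of both include C1s2 (6.81 and 4.83 on the log2 scale), which passed the filter only through the combinations and counts as untested. Clu, which encodes the fluid-phase regulator clusterin, was higher by 0.99 and 1.05 on the log2 scale. C1qbp, a mostly mitochondrial protein that binds C1q, was lower by 0.97 and 1.17 (log2 fold changes of -0.97 and -1.17), and Cr1l, a membrane regulator of C3 cleavage, changed by -0.16 and -0.26. Cfp changed by -1.09 and -0.54. Itgb2 (2.91) was called only for Combo200 over IFN200, and Vtn (3.65) and C4bp (-1.27) only for Combo2000 over IFN2000. Counts were low, at most 74 per library for Cfp, 33 for Itgb2, 17 for C4bp and 11 for Vtn. The calls of Cfp and C4bp for Combo2000 over IFN2000 were lost with DESeq2. For the interaction at the higher dose, edgeR called 0 of the 11, and 2 had an unadjusted p under 0.05. Of all genes, 2.12% were called higher for it. DESeq2 also called 0 of the 11, but gave no adjusted p for 8 of them.

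**Figure D4:**
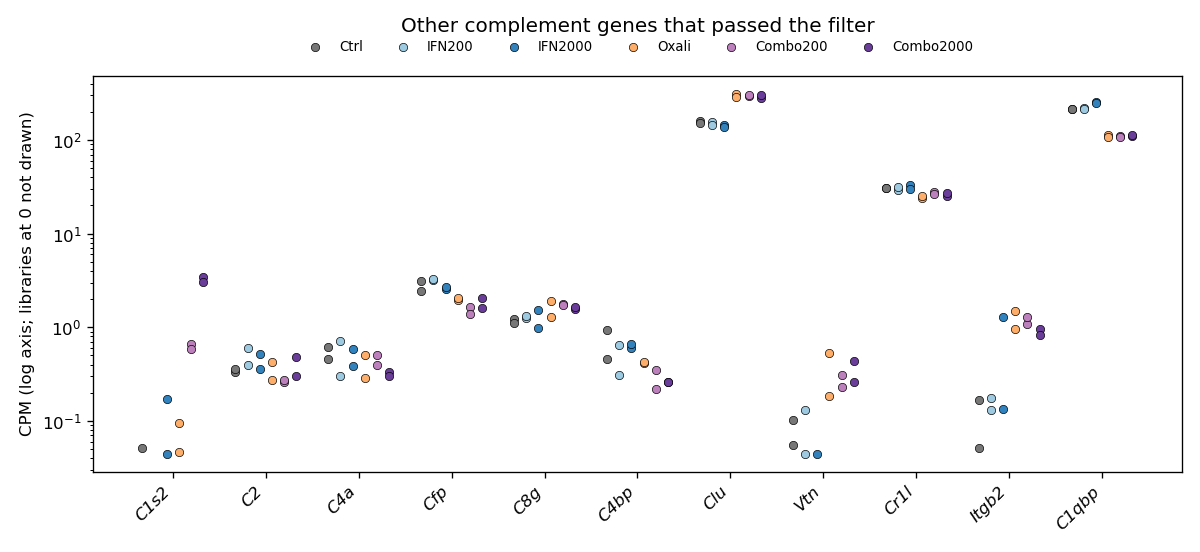
CPM on a log axis in each library (points, colored by group) for the 11 other complement genes that passed the filter; libraries at 0 cannot be drawn. C1s2 is highest in the Combo2000 libraries, Clu is higher and C1qbp lower in the libraries with Oxali, and C4a lies between 0.286 and 0.707 CPM throughout.

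Markers of other cells that make complement were read beside these values. Of 7 hepatocyte markers 2, Alb and Serpina1a, were at 0 in all 12 libraries. The list summed to 1.42 to 1.52 CPM for Combo2000, 1.04 to 1.13 for Combo200, 1.38 to 1.48 for Oxali, 1.16 to 1.41 for IFN2000, 1.13 to 1.37 for IFN200 and 1.28 to 1.37 for Ctrl, and so was higher in Combo2000 than in Combo200. The 7 macrophage markers, with Adgre1 at 0 throughout, summed to 1.96 to 1.98 CPM for Combo2000, 1.86 to 2.27 for Combo200, 1.53 to 1.89 for Oxali, 1.16 to 3.73 for IFN2000, 0.530 to 0.911 for IFN200 and 0.556 to 1.27 for Ctrl. This list was higher in Oxali than in Ctrl, as were the 7 fibroblast markers, which summed to 21.6 to 30.0 CPM without Oxali and 32.8 to 40.5 CPM with it. The 7 T cell markers summed to 0.354 to 0.811 CPM in Ctrl and IFN200, 1.03 to 5.53 in IFN2000, where replicate 2 was the higher, and 2.00 to 2.44 in the groups with Oxali. The 7 heart muscle markers summed to 0.834 to 1.27 CPM in Ctrl, 1.15 to 9.68 in IFN200, where replicate 1 was the higher, 1.03 to 1.11 in IFN2000 and 3.49 to 6.27 in the groups with Oxali. The part of other cells in the values of the complement genes was not tested.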

How the data were processed

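Poly(A) RNA of 12 Myc-CaP libraries was analyzed from the raw counts per gene symbol that the authors deposited as 1 table. The submitters' processing notes name STAR 2.7.3a, RSEM 1.3.0 and GRCm38, whereas the study's methods give STAR with GENCODE models and featureCounts. The library kit is stranded, but the strand setting of the counting and the handling of reads with several matches were not stated in the sources used here. All counts were whole numbers, and every row named a gene.

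Genes were filtered with filterByExpr (minimum count 10, minimum total 15), which left 13177 of 55216, and scaled by TMM. The quasi-likelihood test of edgeR 4.0.16 (R 4.3.3) was fitted to all 12 libraries with 1 mean for each group and no other term, since 2 libraries per group leave few degrees of freedom. P-values were adjusted by Benjamini-Hochberg over all genes tested, with a threshold of 0.05. The SE was taken as the size of the log2 fold change over the root of its F statistic. An exact permutation test of 2 against 2 libraries cannot go below 0.333 and was not used. CPM were computed with the TMM library sizes; ratios of scaled counts carry exact 95% counting intervals. The filter passed 4 of the 9 genes (C3, C1ra, C1s1 and C4b).

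The 9 genes, the other lists and the tests were chosen with earlier results of these data known. Named genes were the 9, the called genes of the complement list, and the genes most correlated with each tested one. Gene positions came from a later GENCODE release on GRCm38, transcripts were aligned with mafft 7.526, and promoters came from RefSeq. Alternatives were RLE and upper-quartile scaling, no filter, DESeq2 1.42.0, a replicate block, only the groups compared, removal of a trend with exon length, and each library left out. The fit was tested on simulated data. Some marker values are not reported here.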

Additional observations from a re-analysis of the deposited data

Results flagged for a closer look

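The IFNγ effect on C1ra differed between cells with and without Oxali at the higher IFNγ dose. The interaction was 1.87 on the log2 scale (edgeR adjusted p = 0.000354), with Combo2000 over Oxali at 2.50 and IFN2000 over Ctrl at 0.63. Both libraries of Combo2000 lay above both of Oxali, and both of IFN2000 above both of Ctrl.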

How the results depend on the processing

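In the main fit 22 differences of C3, C1ra, C1s1 and C4b passed the threshold, among them those given above without a test. Passing it is no support for the untested ones, given how C3 was chosen and how C1s1 and C4b passed the filter. Of 416 refits of the 22 in 19 settings, 394 kept the direction and the side of the threshold, 22 lost the call and 0 reversed. The lost calls fell on 4 differences: C3 and C1s1 for IFN2000 over Ctrl, C1ra for IFN2000 over IFN200 and C4b for Combo200 over IFN200. The number of these genes called for IFN2000 over Ctrl went from 2 to 1 with only the groups compared and with DESeq2 (0 to 2 with 1 library left out). For IFN2000 over IFN200 it went from 1 to 0 with the replicate block, only the groups compared, DESeq2 or the length trend removed (0 to 1 with 1 library left out). For the interaction at the lower dose it went from 0 to 1, C1ra, without a filter (0 to 1 with 1 library left out). Of the other complement genes, calls for IFN2000 over Ctrl and over IFN200 each went from 2 to 1 with the replicate block, only the groups compared or DESeq2. In the main fit, 8.39% and 11.3% of all genes were called higher in these comparisons. In both, DESeq2 gave no adjusted p for 7 of the 11 genes. Combo200 over Oxali went from 1, the untested C1s2, to 0 with the replicate block or DESeq2. The interaction at the higher dose went from 0 to 1 under RLE, upper-quartile scaling, no filter or the length trend removed.

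Leaving out 1 library in turn turned the sign of 6 uncalled or untested differences of C1ra, C1s1 and C4b, given next, and of 1 called difference, Itgb2 for IFN2000 over IFN200 (-0.18 without IFN2000 2, up to 3.04). For IFN200 over Ctrl, C4b ran from -2.53 (without IFN200 2) to 3.18 and was -0.31 without Ctrl 2, and C1ra ran from -0.060 (without Ctrl 1) to 0.11 and was -0.02 without IFN200 1. Without Ctrl 1 the interactions fell to -0.67 (C4b, lower dose, up to 5.68), -0.22 (C4b, higher dose, up to 6.13) and -0.88 (C1s1, lower dose, up to 2.61). C4b for Oxali over Ctrl ran from -2.54 (without Oxali 2) to 3.80. With the replicate block, the C1ra interaction at the higher dose was 1.86 (edgeR adjusted p = 0.00145). C4b for Combo200 over IFN200, given without a test, was 2.46 with this block. Of 21 same-numbered pairs, 0 correlated above 0.1 (r -0.0456 to 0.045). These were deviations from means of 2 libraries, which mirror each other within a group, so the pairs are not independent. Whether the numbers mark anything shared between groups cannot be told from them. The log2 ratio to Ctrl fell with exon length in IFN2000 (Spearman -0.304 and -0.163 in its replicates 2 and 3), and with that trend removed C3 for IFN2000 over Ctrl was 0.65 (edgeR adjusted p = 0.0254). Counts of 0 to 10 limit C1s1 and C4b without the combinations.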
